A study of Mus musculus with 7 samples.

Results

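CTCF binding was examined across the mouse interval that runs from the genes Wnt6 and Ihh through Epha4 to Pax3, taken as 74.8 to 78.7 Mb of chromosome 1 in mm10. CTCF is a zinc finger protein that binds a long DNA motif and, with cohesin, holds the ends of chromatin loops. Its sites were chosen as pairs of ChIP-exo peaks in the deepest library, prepared from 2700000 liver cells, and this gave 102 sites in the interval of 64713 in the genome. In ChIP-exo an exonuclease trims each strand of the immunoprecipitated DNA up to the point of crosslinking, so that a bound protein leaves a stop on the forward strand and another a little downstream on the reverse strand. A tag is a sequenced 5′ end at such a stop, and each deposited peak is 21 bp wide and holds at least 2 tags. A pair is a forward peak with a reverse peak 10 to 80 bp downstream, and pairs were thinned so that sites lay at least 200 bp apart. The tags of a site are those of all listed peaks within its 200 bp.

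The 7 libraries came from wildtype mice, and the antibody was against CTCF in each. Brain, lung, kidney and liver were processed at 100 mg of tissue, and the other 3 libraries were a titration of liver cells at 2700000, 270000 and 27000 cells. Per the methods, liver cell numbers were estimated from the wet weight of tissue, so the titration varies the amount of liver. The methods give adult males aged 16 weeks for the organs. The labels give crosslinking in 0.3% formaldehyde and the methods 1% for mouse tissue, and the extraction text of the labels names IgG where the sample fields name CTCF. Each condition had 1 library, so there is no replicate spread, no difference below was tested between conditions, and intervals cover counting error only. No RNA was measured, so the organ labels were not checked against marker genes.

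The genes at the ends and in the middle of the interval act in embryonic patterning. Ihh encodes a Hedgehog ligand that paces the growth of cartilage, Wnt6 and its neighbour Wnt10a encode secreted Wnt ligands, Epha4 encodes a receptor for ephrins that steers growing axons, and Pax3 encodes a transcription factor of neural crest and muscle progenitors. In the limb bud, enhancers of Epha4 lie within its own topological domain, and loss or inversion of the domain's borders is known to let them act on Wnt6, Ihh or Pax3, with malformed digits. CTCF sites are a common feature of such borders.

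Promoter sequences are shown first, since they show where the stops of CTCF did and did not fall next to the genes. They are the 250 bases before the annotated start, 5′ to 3′ on the strand of the gene, from RefSeq for GRCm38.p6, the assembly behind mm10. RefSeq's table held promoters for Wnt6, Ihh and Epha4. Of 60 promoter windows of the interval, each with 250 bases before and 50 after the start, the one of Tuba4a, a tubulin gene, held the most tags in the library of 2700000 cells, 17, and the next held 6. In the sequence of Tuba4a, which covers chr1:75219295-75219544 on the minus strand, capitals mark the bases under listed peaks of that library.
Tuba4a: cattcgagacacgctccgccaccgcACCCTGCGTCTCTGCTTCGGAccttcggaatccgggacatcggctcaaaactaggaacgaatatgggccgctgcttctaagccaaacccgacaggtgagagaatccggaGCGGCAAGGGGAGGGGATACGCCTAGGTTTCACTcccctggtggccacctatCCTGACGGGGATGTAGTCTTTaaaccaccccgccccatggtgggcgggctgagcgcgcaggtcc
A forward peak of 5 tags covered chr1:75219338-75219358 and a reverse peak of 4 tags chr1:75219377-75219397, 39 bp apart from centre to centre. The window lies within the annotated span of Tuba4a. The motif CCNNNAGNNGGC, taken as the core of the CTCF motif, was searched on both strands. It was not in this window, and it was in 8.61% of the 32851 promoters of RefSeq's table and in 5 of the 60 windows of the interval. The 10 bases just before that reverse peak, chr1:75219367-75219376 read on the plus strand, were CCACCAGGGG, which matches the first 10 of the 12 letters of the core. They were looked at after the peaks had been seen. The same 10 letters were in 79 promoters of the table, or 0.24%, on either strand, and in no other window of the interval. That share is for this exact sequence. Many other sequences also match the first 10 letters of the core, where N is any base, and these were not counted. A match is a description of the sequence.

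The promoters of Ihh, Epha4 and Wnt6 held no listed tag in any of the 7 libraries and no match to CCNNNAGNNGGC. In these sequences, capitals mark CG dinucleotides, the bases whose methylation can block CTCF. They cover chr1:74951673-74951922 on the minus strand for Ihh, chr1:77515089-77515338 on the minus strand for Epha4, and chr1:74771642-74771891 on the plus strand for Wnt6.
Ihh: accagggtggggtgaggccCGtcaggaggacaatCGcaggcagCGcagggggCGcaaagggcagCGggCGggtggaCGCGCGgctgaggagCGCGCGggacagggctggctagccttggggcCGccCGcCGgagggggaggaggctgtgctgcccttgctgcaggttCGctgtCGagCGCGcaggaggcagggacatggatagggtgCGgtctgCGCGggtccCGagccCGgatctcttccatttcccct
Epha4: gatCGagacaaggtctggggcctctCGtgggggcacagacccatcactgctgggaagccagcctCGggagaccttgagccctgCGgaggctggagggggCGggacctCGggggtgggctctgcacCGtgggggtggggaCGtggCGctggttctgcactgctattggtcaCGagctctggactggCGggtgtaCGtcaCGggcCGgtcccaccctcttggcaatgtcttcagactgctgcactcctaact
Wnt6: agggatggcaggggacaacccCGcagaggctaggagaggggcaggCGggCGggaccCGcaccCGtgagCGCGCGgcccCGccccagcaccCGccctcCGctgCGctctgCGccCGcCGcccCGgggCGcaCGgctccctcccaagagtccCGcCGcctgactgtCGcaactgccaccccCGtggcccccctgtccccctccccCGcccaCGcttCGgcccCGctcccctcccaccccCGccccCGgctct
They held 24, 14 and 28 CG dinucleotides in that order, and 72.0%, 66.0% and 79.6% of their bases were G or C.

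The sites nearest to the genes that name the interval differed in strength. The strongest was not in the interval at all, since Wnt6 ends 14678 bp before its start. That site, at chr1:74787919-74788118 and 2697 bp past Wnt6, held 212 tags in the library of 2700000 cells. There were 7 tags in brain, 2 in kidney, 5 in the library of 270000 cells, 2 in that of 27000, and none in lung or liver. Wnt6 had 8 sites within 20 kb, of which 4 lay in its body. The strongest of those 4, at chr1:74784565-74784764, held 148 tags, with 4 in brain, 2 in kidney, 2 in liver and 5 in the library of 270000 cells.

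Ihh had 5 sites within 20 kb, the most of the 3 named genes inside the interval. The strongest lay 18441 bp from the gene within Cfap65, a gene of the sperm tail, at chr1:74926774-74926973. It held 114 tags in the library of 2700000 cells. Brain held 12, lung 2, kidney 10, liver 4 and the library of 270000 cells 4, so each organ was listed there. Within Ihh, chr1:74948902-74949101 held 92 tags, and there were 5 in brain, 13 in lung, 4 in kidney, none in liver and 2 in the library of 270000 cells. The other site in the gene, at chr1:74948633-74948832, held 7 tags and was not listed in an organ. Upstream of Ihh, chr1:74954283-74954482 held 19 tags, 8 in lung and 6 in kidney, and chr1:74964571-74964770 held 37, with 2 in brain and 11 in lung. Lung was thus listed at 4 of the 5 sites and liver at 1, beside 28.1% and 15.4% of all sites in the genome. At both upstream sites all organ tags lay in peaks whose tags start at 1 position. The share also depends on strength: in lung it was 8.51% of genome sites under 20 tags and 64.1% of those of 100 or more.

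Epha4 had a strong site at its 5′ end and little within its body. The site at chr1:77516357-77516556 lay 1369 bp upstream of the annotated start and ranked 6 of 102, with 187 tags in the library of 2700000 cells. Brain held 23 tags there, kidney 6, liver 3, the library of 270000 cells 2, and lung none. The highest brain peak of the interval, a reverse peak of 11 tags, belonged to this site. The share of listed tags that lay at this site was 0.785 times as high in brain as in the library of 2700000 cells, with an exact 95% interval of 0.486 to 1.21. Taken as a share of the tags at all sites of the genome the ratio was 1.76, so its direction depends on the scaling. The body of Epha4, 147926 bp long, held 1 site, at chr1:77433244-77433443, with 23 tags and none in any other library.

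Pax3 had the weakest site of these genes. Its body of 95870 bp held a single site, at chr1:78187404-78187603, with 6 tags in the library of 2700000 cells and none in the other 6 libraries. No other site lay within 20 kb of Pax3. The body did hold 7 brain peaks with 25 tags, 2 lung peaks with 18 and 15 kidney peaks with 42, but none of them stood at this site. A gap of 178.6 kb without a site precedes it.

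**Figure D1:**
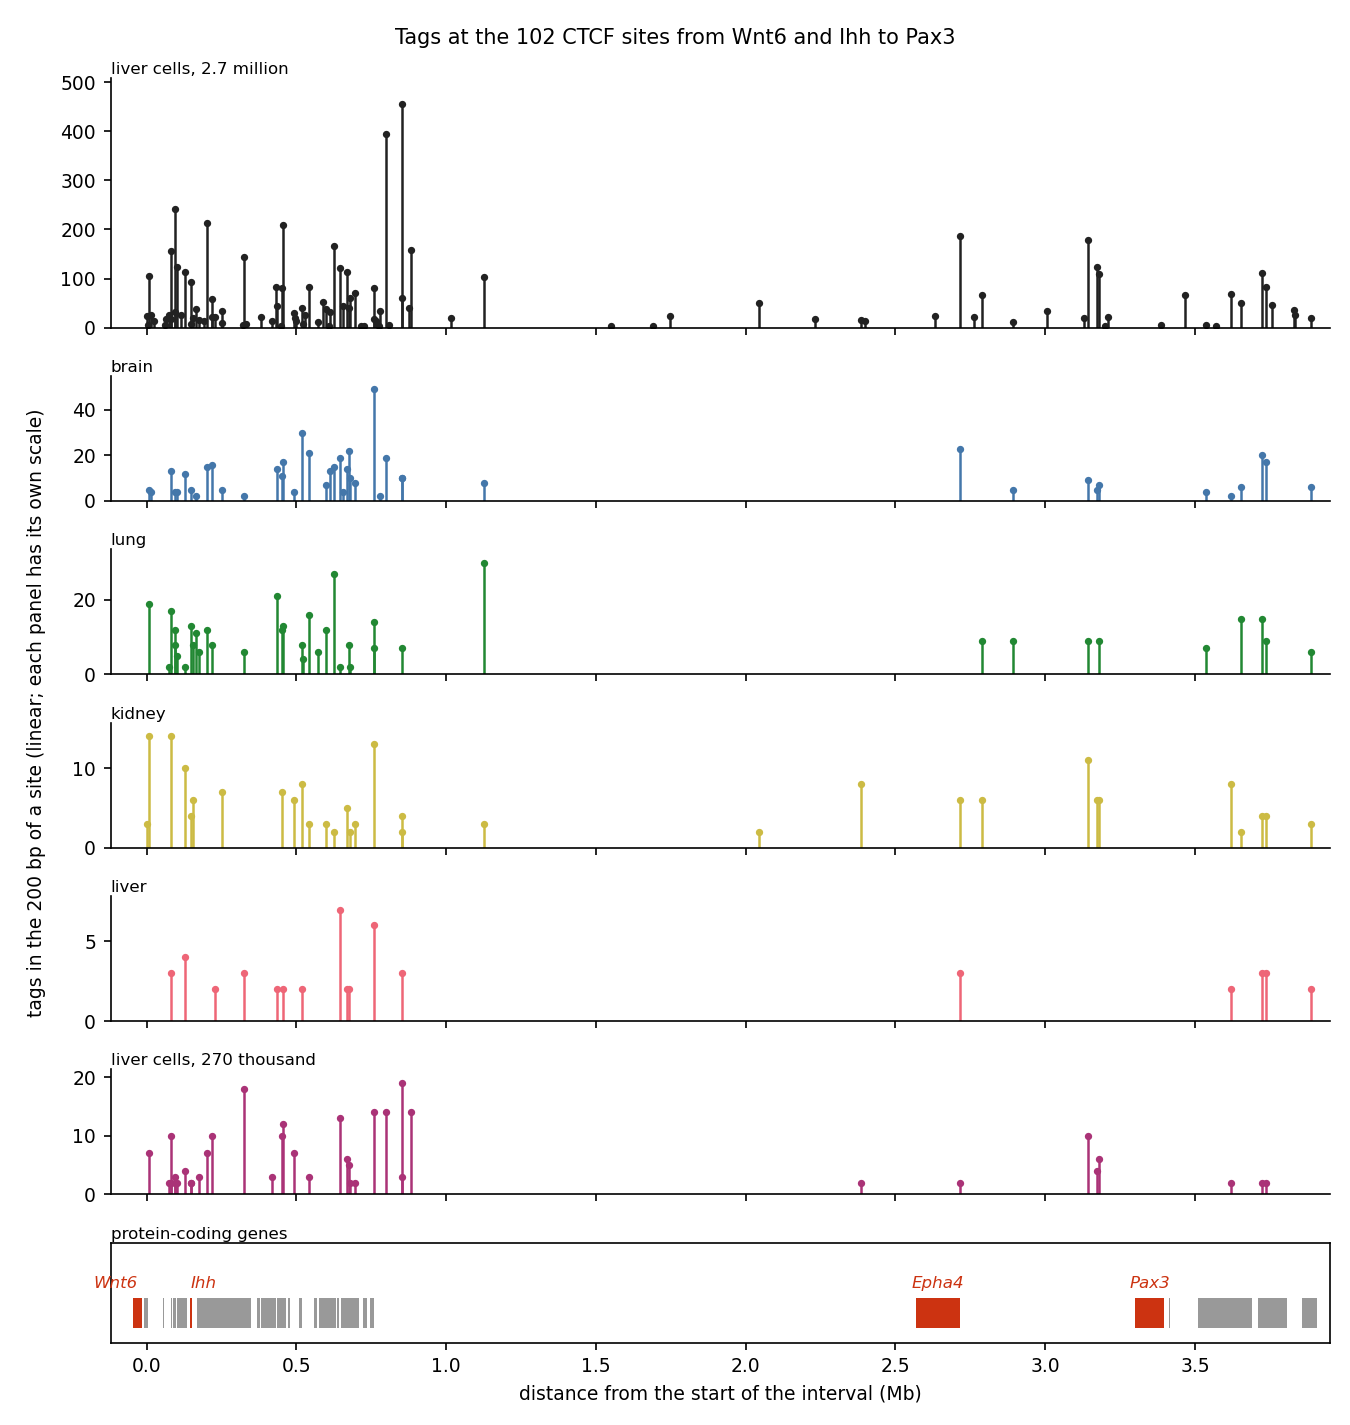
Tags within 200 bp of each of the 102 sites (vertical lines, linear axes with a scale for each panel) against distance from the start of the interval in Mb, for 6 libraries, with protein-coding genes below and the genes that name the interval in red. Sites crowd the first 0.759 Mb and the stretch just after it, where the highest site holds 455 tags, and the middle of the interval is nearly empty in all libraries.

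Sites were densest where genes are dense. The stretch from the start of the interval to the end of Slc4a3, an anion exchanger gene, holds 32 protein-coding genes in 0.759 Mb and held 59 sites. That is 77.7 sites per Mb, with an exact Poisson 95% interval of 59.1 to 100.2, beside 24.0 per Mb over the autosomes, X and Y. From there to the near end of Epha4, 1.81 Mb hold no protein-coding gene, and there were 19 sites, or 10.5 per Mb with an interval of 6.33 to 16.4. From the near end of Epha4 to that of Pax3 there were 12 sites in 0.734 Mb, or 16.3 per Mb (8.45 to 28.6), and from there to the end of the interval 12 in 0.599 Mb, or 20 per Mb (10.4 to 35). The whole interval had 26.2 sites per Mb (21.3 to 31.7), and its median site held 28 tags, with a range of 4 to 455, against 27 over all sites. The stretches differed in density but less in the strength of a site, since the medians were 26, 24, 28.5 and 41 tags in their order along the chromosome.

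**Figure D2:**
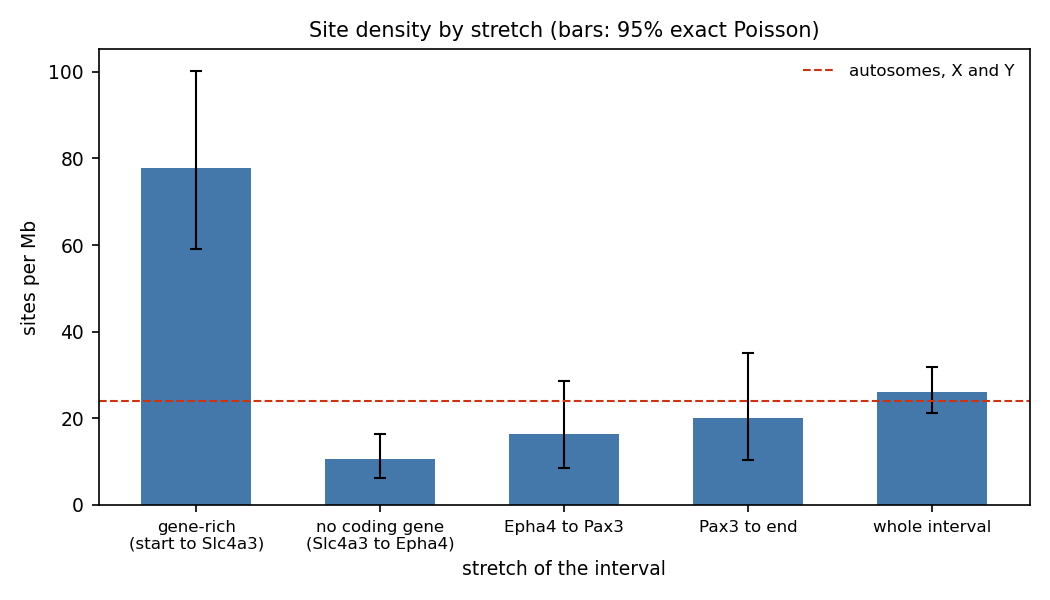
Sites per Mb in the 4 stretches of the interval and in the whole of it (bars, with exact Poisson 95% intervals). The dashed line is the density over the autosomes, X and Y, 24.0 per Mb; only the gene-rich stretch lies above it with its whole interval, and the stretch without coding genes lies below it with its whole interval.

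The stretch without coding genes was itself uneven, a split made after its values were seen. Its first 150 kb past Slc4a3 held 10 of the 19 sites and 1243 tags in the library of 2700000 cells. The remaining 1.66 Mb held 9 sites and 252 tags, which is 5.43 sites per Mb. The largest gaps between sites of the interval, 425.6, 299.5 and 234.7 kb, all lay wholly or in part in that remainder.

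The 2 highest sites of the interval stood in those 150 kb, at the edge of the gene-rich stretch on the side of Epha4. The first, at chr1:75653642-75653841 and 94311 bp past Slc4a3, held 455 tags in the library of 2700000 cells. Brain held 10 there, lung 7, kidney 2, liver 3 and the library of 270000 cells 19. It was listed in every library but that of 27000 cells. The second, at chr1:75597735-75597934, held 394 tags, with 19 in brain and 14 in the library of 270000 cells, and it was not listed in lung, kidney or liver. A further site of 158 tags at chr1:75681999-75682198 was not listed in any organ, yet had 14 tags in the library of 270000 cells. It was the only one of the 20 sites of 100 tags or more without a listed peak in an organ, and 89.9% of all such sites in the genome had one.

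At the gene's own end, 266 bp past Slc4a3, the order of the libraries was another. The site at chr1:75559597-75559796 held 49 tags in brain, the most at any site of the interval in any organ, and 81 in the library of 2700000 cells. Lung held 7, kidney 13, liver 6 and the library of 270000 cells 14. Of the 49 brain tags, 47 lay in peaks whose tags start at more than 1 position. The share of listed tags was 3.86 times as high in brain as in the library of 2700000 cells, with an exact 95% interval of 2.65 to 5.57, and as a share of tags at all sites the ratio was 8.65.

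A second group of strong sites stood between Epha4 and Pax3, 122384 to 157979 bp from Pax3. At chr1:77943188-77943387 there were 179 tags in the library of 2700000 cells, while brain had 9, lung 9, kidney 11, liver none and the library of 270000 cells 10. At chr1:77972461-77972660 there were 123, with 5 in brain, none in lung, 6 in kidney, none in liver and 4 in the library of 270000 cells. At chr1:77978783-77978982 there were 109, with 7 in brain, 9 in lung, 6 in kidney, none in liver and 6 in the library of 270000 cells. Brain and kidney were listed at each of these 3 sites and liver at none, beside 77.3%, 57.1% and 39.6% of all sites of 100 tags or more.

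Most other strong sites stood in the gene-rich stretch, in or beside genes unrelated to the patterning genes. The site at chr1:74895042-74895241, in the lens crystallin gene Cryba2, held 242 tags in the library of 2700000 cells, but only 8 in lung and 3 in the library of 270000 cells, and it was not listed in brain, kidney or liver. Those 8 lung tags all started at 1 position. In Nhej1, which encodes a factor of DNA end joining, chr1:75000607-75000806 held 214 tags, with 15 in brain, 12 in lung and 7 in the library of 270000 cells. Nhej1 lies next to Ihh, and its 10 sites were the most in any gene of the interval. Another of them, at chr1:75124554-75124753, held 144 tags, with 2 in brain, 6 in lung, 3 in liver and 18 in the library of 270000 cells.

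In Ptprn, a gene of secretory granules, chr1:75254328-75254527 held 210 tags, 17 in brain, 13 in lung, 2 in liver and 12 in the library of 270000 cells. In Speg, which encodes a kinase of striated muscle, chr1:75425897-75426096 held 166 tags, 15 in brain, 27 in lung and 2 in kidney, and it was not listed in the library of 270000 cells. Lung was thus the highest organ there. Beside Fev, a transcription factor gene of serotonin neurons, chr1:74880865-74881064 held 156 tags. Brain held 13, lung 17, kidney 14, liver 3 and the library of 270000 cells 10. The site at chr1:74901798-74901997, 173 bp from Cfap65, held 123 tags, 4 in brain and 5 in lung, and that at chr1:75445807-75446006, 2728 bp from Gmppa, held 122, with 19 in brain, 2 in lung and 7 in liver. The latter 7 tags were the most that the liver organ library held at any site of the interval.

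Some sites of lower rank in liver cells held many organ tags. Beside Dnpep, an aminopeptidase gene, chr1:75317942-75318141 ranked 40 with 40 tags, while brain held 30, lung 8, kidney 8 and liver 2. Beside Dnajb2, a gene of a chaperone of neurons, chr1:75234690-75234889 held 45 tags, and there were 14 in brain and 21 in lung, all 21 in peaks of more than 1 position. Far from any coding gene, chr1:75925802-75926001 held 103 tags and 30 in lung, the most in that organ, of which 19 lay in peaks of more than 1 position. None of the 3 had a tag in the library of 270000 cells.

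As shares of listed tags and relative to the library of 2700000 cells, these were 4.79 times as high in brain (2.88 to 7.88), 4.45 in lung (2.52 to 7.63) and 2.78 in lung (1.78 to 4.21), in that order. As shares of tags at all sites they were 10.7, 8.15 and 5.09. The sites were named for their organ tags, so these ratios are a description. Near Wnt10a, chr1:74808212-74808411 held 105 tags, 19 in lung, 14 in kidney, 5 in brain and 7 in the library of 270000 cells. There the lung ratio was 1.73 (0.999 to 2.83) over listed tags and 3.16 (1.83 to 5.19) over tags at all sites. Of the 105 ratios at the sites named by rule, for the organs and the library of 270000 cells, 5 had an interval wholly above 1 over listed tags, 70 wholly below and 30 across it, and 34 were at 0. Over tags at all sites the counts were 16 above, 34 below and 55 across. Over tags at sites outside 10 kb bins crowded with peaks, a scaling added after the data were seen, they were 24, 18 and 63. The sites include the 15 with most tags in the library of 2700000 cells, which divides each ratio. Others, such as that past Slc4a3, were named for their organ tags, so these counts follow in part from the choice of sites.

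**Figure D3:**
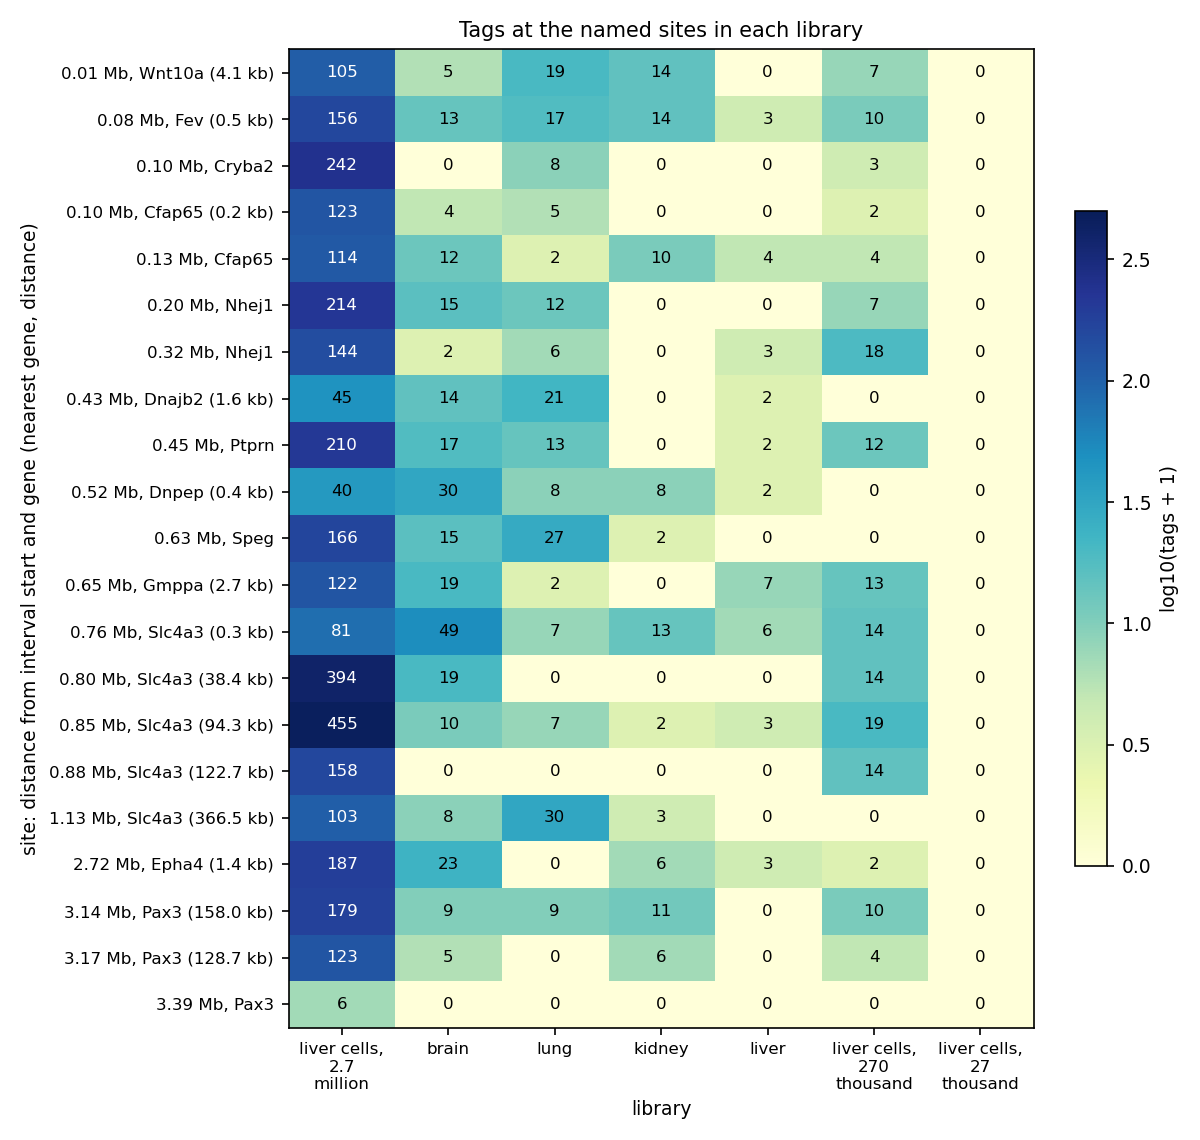
Tags of the sites named by rule in each of the 7 libraries (numbers in the cells, colour on a log10 scale of tags plus 1), in their order along the interval. Sites are given by distance from the start of the interval and by the gene they lie in, or the nearest gene with its distance; the brain column peaks at the site 0.3 kb from Slc4a3, with 49 tags.

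Read across all 102 sites, brain was listed at 44, or 43.1% with a Wilson 95% interval of 33.9% to 52.8%, beside 35.8% of all sites in the genome. Lung was listed at 39, or 38.2% (29.4 to 47.9), beside 28.1%. Kidney was listed at 32, or 31.4% (23.2 to 40.9), beside 25.8%, and liver at 17, or 16.7% (10.7 to 25.1), beside 15.4%. The library of 270000 cells was listed at 37, or 36.3% (27.6 to 45.9), beside 27.1%, and that of 27000 cells at 1, or 0.98%, beside 1.53%. For lung and the library of 270000 cells the share of the genome lay just under the interval, and for the others within it. Windows moved by 5 kb from the sites were listed 3 times in brain, once in lung, 6 times in kidney, never in liver, 1 time in the library of 270000 cells and 11 times in that of 2700000.

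**Figure D4:**
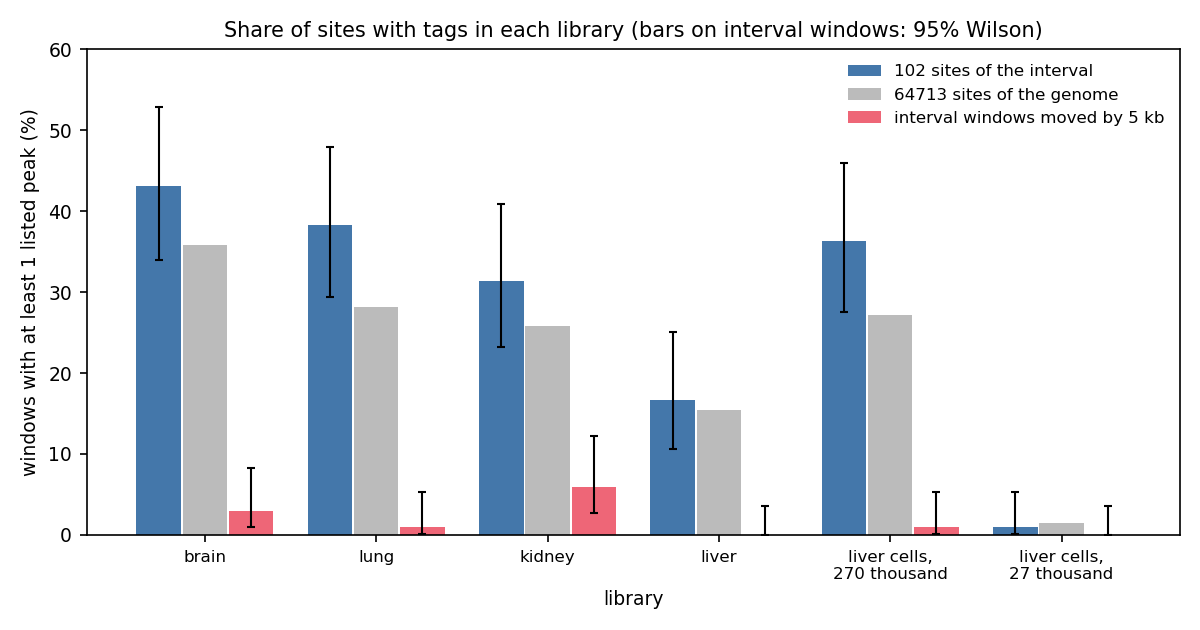
Percentage of windows of 200 bp with at least 1 listed peak in the 4 organs and the libraries of 270000 and 27000 cells, for the 102 sites of the interval (blue, with Wilson 95% intervals), all 64713 sites (grey) and the interval's windows moved by 5 kb (red, with the same intervals). Shares at sites run from 16.7% in liver to 43.1% in brain among the organs, and moved windows stay at 5.88% or less in these 6 libraries.

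Strong sites were mostly listed in more organs than weak ones. Brain was listed at 18 of 20 sites of 100 tags or more, 11 of 16 sites of 50 to 100, 13 of 31 sites of 20 to 50 and 2 of 35 sites under 20. Lung was listed at 15, 9, 8 and 7 of the sites in these classes, kidney at 12, 12, 6 and 2, and liver at 9, 3, 5 and 0. Kidney thus had a higher share at 50 to 100 tags than at 100 or more, though from few sites. Over the genome its shares in these classes were 37.6% and 57.1%. In the top class the shares were 90%, 75%, 60% and 45% for brain, lung, kidney and liver, beside 77.3%, 64.1%, 57.1% and 39.6% of such sites in the genome. At 50 to 100 tags they were 68.75%, 56.25%, 75% and 18.75%, beside 55.2%, 43.8%, 37.6% and 22.3%. At 20 to 50 tags they were 41.9%, 25.8%, 19.35% and 16.1%, beside 32.25%, 24.2%, 22.1% and 11.7%. In the lowest class they were 5.71%, 20%, 5.71% and 0%, beside 12.2%, 8.51%, 9.77% and 4.46%.

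Across the organs, 46 sites had no listed peak, 15 were listed in 1 organ, 14 in 2, 19 in 3 and 8 in all 4. In the genome 48.15% of sites had none, 21.1% were listed in 1 organ, 14.1% in 2, 10.9% in 3 and 5.82% in all 4. The shares here were 45.1%, 14.7%, 13.7%, 18.6% and 7.84% in that order. The 8 sites in all 4 organs were those beside Fev, Dnpep and Slc4a3, in Cfap65, the highest site of the interval, and 3 near its end. Of these, chr1:78525341-78525540 and chr1:78536869-78537068 lay in Mogat1, an enzyme gene of fat synthesis, with 20 and 17 tags in brain, 15 and 9 in lung, 4 and 4 in kidney and 3 and 3 in liver. The last, at chr1:78686978-78687177 in Acsl3, which encodes a fatty acid ligase, held 6 brain, 6 lung, 3 kidney and 2 liver tags.

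The libraries differed in depth. Brain had 1032833 listed tags in the genome, lung 691479, kidney 1635582, liver 527038, and the titration 6592538, 640635 and 35594 from the most cells to the fewest. The sites took 28.4% of the interval's tags in brain, 34.2% for lung, 7.6% for kidney, 6.77% for liver and 57.7% at 2700000 cells. Peaks whose tags all start at 1 position made up 80.3% to 91.0% of the organs' peaks in the interval and 34.2% at 2700000 cells, and their part in the lower shares was not tested. Relative to the library of 2700000 cells, the share of listed tags at the sites was 0.539 times as high in brain (0.491 to 0.590), 0.656 in lung (0.592 to 0.726), 0.126 in kidney (0.109 to 0.146), 0.108 in liver (0.0804 to 0.142) and 0.403 at 270000 cells (0.352 to 0.460). The sites were chosen as pairs of the library of 2700000 cells, which favours its own share. Ratios below 1 over listed tags therefore follow in part from that choice. As shares of the tags at all sites of the genome, the ratios were 1.21, 1.2, 0.488, 0.237 and 0.695 in the same order, so the directions in brain and lung depend on the scaling. When dense bins of the genome were also left out, kidney, at 1.13, and the library of 270000 cells, at 1.35, turned as well, and liver was at 0.799. The liver organ library lay below that of 2700000 liver cells under each scaling, though with an upper bound of 1.05 in the last. Both came from liver, and with 1 library of each, amount of tissue and library cannot be told apart.

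Pairs found in the other libraries, without thinning, mostly stood at these sites, with centres within 100 bp of them. Of 35 brain pairs in the interval 34 stood at 22 of the 102 sites, so that some shared a site. All 3 lung pairs stood at 3 sites, 7 of 9 kidney pairs at 6, both liver pairs at 2 and all 9 pairs of the library of 270000 cells at 8. The share of pairs at sites over the whole genome was not counted, so none stands beside these counts. The brain pair away from a site lay in Abcb6, a porphyrin transporter gene, at chr1:75178380-75178579, with 8 tags. The kidney pairs away from a site, at chr1:78269639-78269838 and chr1:77540105-77540304, held 6 and 5 tags. None of these 3 had a tag in the library of 2700000 cells, and the tags of each of their peaks all started at 1 position.

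In liver cells the stops of strong sites stood at a narrow range of spacings. At the 36 sites of 50 tags or more, the forward and reverse stops lay a median of 41 bp apart, with quartiles of 38.8 and 46.5 bp, beside 42 bp at all such sites. Among these 36 the forward peak was the higher at 18 and the reverse at 17, and at 11 the higher had at least 2 times the tags of the other, beside 50.8% of such sites in the genome. At the highest site the reverse peak held 201 tags and the forward peak 53. Near Epha4 the forward peak held 60 and the reverse 18, and past Wnt6 they held 69 and 71. Of the stops with a peak of the same strand in the window, brain had one within 5 bp of the liver cells' stop at 22 of 70, lung at 11 of 47, kidney at 5 of 39, liver at 5 of 20 and the library of 270000 cells at 16 of 47. These shares were 31.4%, 23.4%, 12.8%, 25% and 34.0%, beside 26.0%, 22.4%, 20.4%, 25.7% and 39.7% over all sites.

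**Figure D5:**
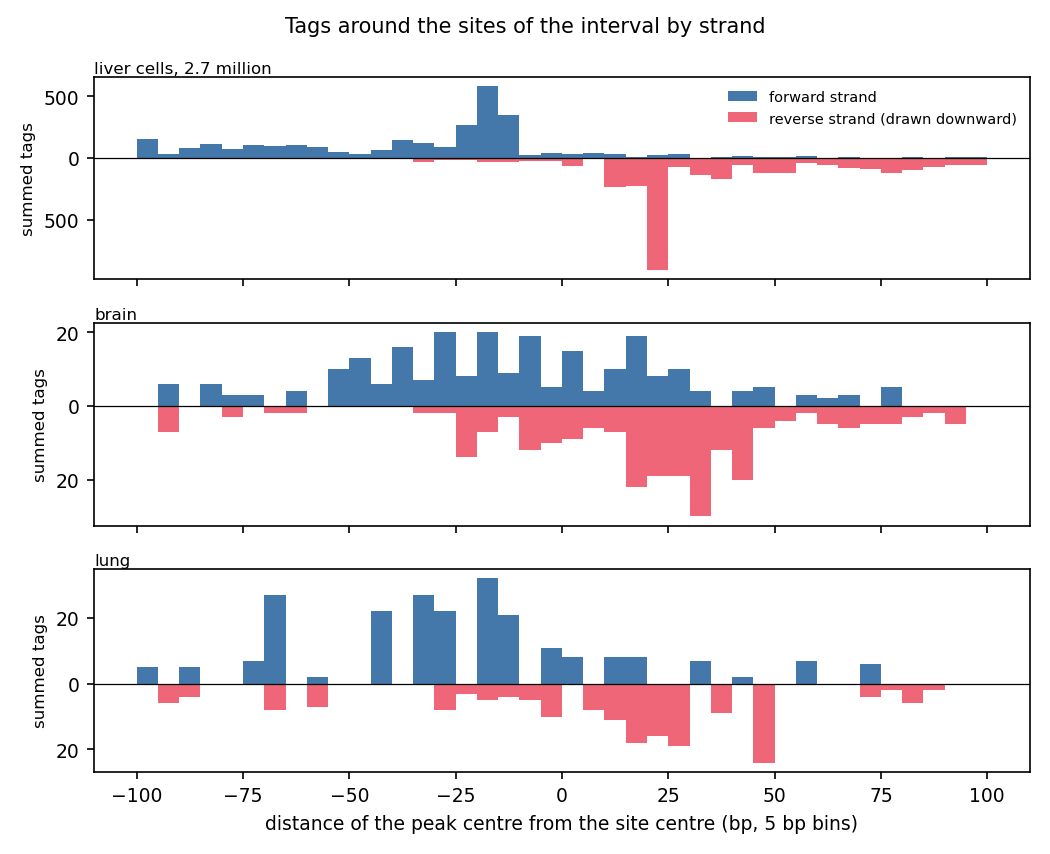
Summed tags of forward peaks (blue, upward) and reverse peaks (red, drawn downward) by distance from the centre of the 102 sites, in bins of 5 bp, for the libraries of 2700000 liver cells, brain and lung. The liver cells show a narrow stop on each side of the centre, which follows from the choice of sites as pairs of that library. Brain and lung tags, placed by the stops of the liver cells, are spread over the window. In both, most forward tags lie before the centre and most reverse tags after it. The brain and lung tags number 498 and 406, beside 5900 in the liver cells.

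The sites lay near starts and in genes about as often as all sites of the genome did. Whether sites favour promoters over other DNA was not tested. Of the 102, 5 lay within 1 kb of a listed start, or 4.90%, beside 4.70% of all sites, and 45 lay in a protein-coding gene, or 44.1%, beside 46.2%. Of the 40 protein-coding genes in the interval, 39 had a site within 20 kb, beside 84% of all such genes, and the exception was Gm2102. A site in the body was held by 21 of the 40, a share that was not counted over the genome.

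Most genes of the named families were near a CTCF site, as were most genes of the genome. Over all chromosomes, 84% of 21887 protein-coding genes had a site within 20 kb and 71.5% a site with organ tags. Of 11 Hedgehog pathway genes 10 had a site, each also with organ tags, and the receptor gene Ptch1 had none. Among Eph receptor genes it was 13 of 14, all with organ tags, with Epha2 the one without. Each of the 9 Pax genes had a site, and Pax3 alone had none with organ tags. Of 19 Wnt ligand genes 18 had a site, 17 with organ tags, and Wnt16 had none. Wnt6 and Wnt10a had 8 and 7 sites within 20 kb, while Ihh had 5, as many as Gli2, and Shh had 2.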

How the data were processed

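CTCF ChIP-exo 5.0 libraries from 4 organs and 3 amounts of liver cells were compared, with 1 library per condition. The submitters' processing notes name mm10, BWA 0.7.9a and bcl2fastq 2.16. Per the methods, the authors kept unique paired alignments without duplicates. They deposited peak lists whose values are raw tag counts per peak, not normalized. The authors deposited counts of at least 2 tags only. The peak caller's settings are not given in the sources used here.

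From these counts, peaks of opposite strand 10 to 80 bp apart were paired by summed tags, and pairs of the library of 2700000 cells were thinned to 200 bp. The tools were scipy 1.17.1, pandas 2.3.3, numpy 2.4.6 and matplotlib 3.10.9 under Python 3.11.15. Intervals are 95% Wilson, exact binomial or exact Poisson intervals. Pairing was checked on simulated data. Named sites were the 15 with most tags, the best within 20 kb of each named gene, and the 3 with most tags per other library, beside pairs away from sites; others were named after their values were seen. The members and gene lists were chosen with earlier results of these data known. A planned motif search at the sites was not run, as no genome sequence was used here. In RefSeq's promoter table, overlapping windows of opposite strand were reverse complements in 110 of 110 cases on chromosome 1.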

Additional observations from a re-analysis of the deposited data

How the results depend on the processing

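The number of sites stayed between 90 and 127 under other pair distances, a spacing of 100 bp, removal of peaks of 1 position, and an interval that takes in Wnt6, and it was 67 when only sites of at least 20 tags were kept. With those sites the share listed was 62.7% in brain, 44.8% in kidney, 25.4% in liver and 47.8% at 270000 cells, beside 52.1%, 36.8%, 22.9% and 41.2% of all sites so kept. When at least 5 tags were asked for, it was 33.3% in brain, 16.7% in kidney, 1.96% in liver, 16.7% at 270000 cells and 0% at 27000, beside 21.8%, 12.3%, 3.23%, 12.6% and 0.723% of all sites. Without peaks of 1 position it was 20% in lung, 15.6% in kidney, 26.7% at 270000 cells and 0% at 27000, beside 14.7%, 12.6%, 21.7% and 0.856%. These moves follow from the construction of the alternatives, which keep fewer sites or fewer peaks. The ratio to the library of 2700000 cells, taken over tags at all sites of the genome, turned direction in brain, 1.21, and lung, 1.2, and moved to 0.488 in kidney, 0.237 in liver and 0.695 at 270000 cells. A scaling added after the data were seen leaves out 23 dense bins of 10 kb, none of them in the interval, with the mitochondrial genome and unplaced sequences. With it the ratio was above 1 in brain, 1.56, lung, 1.24, kidney, 1.13, and at 270000 cells, 1.35, and it was 0.799 in liver and 0.781 at 27000 cells. The cause of these differences between scalings was not tested. Of 69 alternative values 44 stayed within the counting interval of the main value, or within 1.5 times a count. No paired analysis was possible because each condition had 1 library. The lists start at 2 tags, so an organ without a listed peak may hold a single tag, and the part of depth in the sites not listed was not tested.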

Other observations

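Away from the sites, some of the highest peaks of the smaller libraries had all their tags at 1 position. A lung peak of 18 tags stood at chr1:76042868-76042888, within the annotated non-coding gene Gm32622 and 116976 bp from the nearest site, beside a highest lung peak of 19 tags at the sites. A kidney peak of 9 tags stood at chr1:77524522-77524542, 9444 bp upstream of the start of Epha4, and 9 was also the count of the highest kidney peaks at sites. The library of 27000 cells had 9 peaks in the interval, all of 1 position, and its highest, of 6 tags, stood 13612 bp from a site, within Gm33083 and Gm33030.

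Promoter windows of the interval held at most 17 tags each in the library of 2700000 cells. Tags at promoters elsewhere in the genome were not counted, so no such share stands beside the counts that follow. Of the 60 windows, 12 had a listed peak in the library of 2700000 cells, 4 in brain, 5 in kidney, 1 in liver, 2 in the library of 270000 cells and none in lung or the library of 27000 cells. Of the 5 windows with the core of the CTCF motif, that of Ptprn at chr1:75264159-75264458 had 5 tags in brain and 2 in liver but none in the library of 2700000 cells. That of Dnpep at chr1:75316968-75317267 had 2 in brain, and that of Chpf at chr1:75479422-75479721 had 2 in the library of 2700000 cells.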
